A study of Mus musculus with 2 samples.

Results

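Molecular chaperones of the heat shock protein (HSP), DnaJ and CCT families were described in stage 1 invariant natural killer T (iNKT) cells, an early thymic stage of a T cell lineage with a semi-invariant receptor. The genes were chosen by name, as every gene of both libraries whose symbol starts with Hsp, with Dnaj, or with Cct and a digit, with 1 name left out. This gave 77 of 16386 genes: 28 Hsp, 41 Dnaj and 8 Cct. The knockout (KO) library came from Uhrf1 KO stage 1 iNKT cells and the wild-type (WT) library from stage 1 iNKT cells without that knockout. Both libraries were made from C57BL/6 thymus at an age of 5 weeks, from cells that were stained, sorted and lysed fresh. Neither the number of mice and the sorting gate nor the allele and the promoter or Cre used to delete Uhrf1 were given in the sources used here. As each genotype had 1 library, the differences below have no replicate check and are given without p-values.

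Chaperones bind unfolded proteins and let them fold, refold or be degraded. HSP70 proteins clamp onto short hydrophobic stretches in a cycle of ATP hydrolysis that J-domain (DnaJ) proteins start and nucleotide exchange factors of the HSP110 type end. HSP90 acts later, on kinases, steroid receptors and other clients, and the HSP60 and CCT chaperonins enclose their clients in ring chambers of mitochondria and cytosol. Heat shock factors raise the inducible members by binding heat shock elements, and the unfolded protein response raises those of the endoplasmic reticulum (ER). In T cells chaperone demand is known to climb with activation and growth.

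Values are FPKM, fragments scaled to transcript length and library size, as deposited. A gene was measured when its mean FPKM over the 2 libraries was at least 1. A gene "rose" or "fell" in the KO when its log2 ratio, log2((KO FPKM + 1) / (WT FPKM + 1)), reached 1 or -1, a scale that understates the change of low genes. Folds are ratios of the deposited scaled counts, with 95% Clopper-Pearson intervals from the reads behind them. They describe counting error alone, because each genotype had 1 library. PCR copies were not told apart by molecular identifiers and count as separate reads, so the intervals can be too narrow.

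Uhrf1, which brings the maintenance DNA methyltransferase to newly copied DNA, had an FPKM of 0.626 in the KO library and 35.3 in the WT library (25 and 3032 reads), 56.8-fold lower (interval 38.4 to 88.0). The KO library held 12189849 reads on genes and the WT library 26005822, so the WT library was 2.13 times deeper. Across 9955 measured genes there were 2116 rises and 2354 falls, and the median log2 ratio was -0.0048. Of the measured genes 469 (4.71%) were listed at 0 reads in the KO library and 270 (2.71%) in the WT library. Among those at 0 in the KO library was Bcs1l, a respiratory chain assembly factor that most cells use, so a 0 is given below as listed. All 7 iNKT and T cell markers found were measured in both libraries. Their summed FPKM was 4009 in the KO and 2563 in the WT library. Zbtb16, which encodes the lineage factor PLZF, fell at 41.9 FPKM in the KO and 114 FPKM in the WT library. In bulk RNA, here and below, fewer cells of a type and less RNA per cell cannot be told apart.

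Promoter sequence is shown for the members whose values the results below turn on, from RefSeq on GRCm38.p6, counting the first base before the start site as -1. The stress-inducible HSP70 genes Hspa1b (chr17:34959239-34959388, minus strand) and Hspa1a (chr17:34972157-34972306, minus strand) are neighbours and close copies. With Hspb1 (chr5:135887769-135887918, plus strand), which encodes the small HSP known as HSP25 in mouse, they are printed from -150 to -1. Capitals mark the heat shock element pair in its head-to-head form, GAA and TTC with any 2 bases between them, which reads the same on both strands.
Hspa1b: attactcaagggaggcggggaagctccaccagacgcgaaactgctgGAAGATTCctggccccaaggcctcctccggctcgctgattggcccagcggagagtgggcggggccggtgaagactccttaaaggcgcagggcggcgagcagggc
Hspa1a: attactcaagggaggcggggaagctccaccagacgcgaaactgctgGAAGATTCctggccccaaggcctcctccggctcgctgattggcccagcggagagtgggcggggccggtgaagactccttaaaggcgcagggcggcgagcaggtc
Hspb1: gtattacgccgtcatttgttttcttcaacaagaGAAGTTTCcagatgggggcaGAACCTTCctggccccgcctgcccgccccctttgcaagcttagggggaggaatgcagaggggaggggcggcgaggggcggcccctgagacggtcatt

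The upstream 250 bases of Hspa1a and Hspa1b were identical at 247 positions (98.8%), while their values in the KO library were far apart (1 and 127 reads). The pair lies at -104 to -97 in both, and Hspb1 holds it at -117 to -110 and at -97 to -90. A further site is shared by the chaperonin genes Hspd1 and Hspe1, which are transcribed away from each other from the same short interval. It is printed from the Hspe1 side (chr1:55088055-55088080, plus strand, -93 to -68), with its overlapping pairs in capitals, head to head as above and tail to tail (TTC and GAA with 2 bases between).
Hspe1: tccgTTCTAGAACCTTCCGGAAggcc

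ER stress elements, CCAAT and CCACG with any 9 bases between them, were found in the promoters of 3 members that work in the ER. They are Hspa5 (chr2:34772020-34772048, plus strand, -70 to -42), Dnajc3 (chr14:118937822-118937850, plus strand, -110 to -82) and Hsp90b1 (minus strand), the last with a copy at chr10:86705633-86705661 (-217 to -189) and another at chr10:86705528-86705556 (-112 to -84). Capitals mark the element, which in the second Hsp90b1 line stands on the opposite strand.
Hspa5: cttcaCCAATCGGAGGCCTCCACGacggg
Dnajc3: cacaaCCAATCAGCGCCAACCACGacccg
Hsp90b1 distal: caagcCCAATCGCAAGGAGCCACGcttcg
Hsp90b1 proximal: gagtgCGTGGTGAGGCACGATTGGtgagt

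Of the 77 genes 59 were measured, and of these 13 rose in the KO and 7 fell, leaving 39 short of the size rule. The 20 past the rule were 33.9% of the measured members, against 44.9% of all measured genes (21.3% that rose and 23.6% that fell). Rescaling to the upper quartile turned the split of 13 rises and 7 falls into 10 and 9. Restricted to genes averaging 5 FPKM or more, it was 9 rises and 3 falls. Among genes with over 10 reads in both libraries, a filter added after seeing the data, it was 11 rises and 3 falls. That filter leaves out every gene listed at 0 in a library. Over all genes passing each of these filters the median log2 ratio was 0.07 and 0.06, against -0.0048 in the main setting. The shares of all genes that rose and fell at 5 FPKM or more are given by level below. Those under the read filter are not given, so these splits are not read as particular to the members. With a pseudocount of 5, 10 of the 20 were short of the rule (Hspa14, Hspa1b, Hspbap1, Dnaja3, Dnaja4, Dnajb4, Dnajb9, Dnajb13, Dnajc17 and Dnajc28). The members' median log2 ratio was 0.14. Members were spread toward high levels, and the share of genes past the rule fell with level, so the counts are also given by level. At a mean FPKM of 1 to 5, 8 of 13 members passed (4 rose, 4 fell), against 61.1% of all genes (23.5% rose, 37.6% fell). At 5 to 25 it was 4 of 10 (3 rose, 1 fell), against 47.3% (24.1% rose, 23.2% fell). At 25 to 100 it was 6 of 22, all of them rises, against 32.3% (19.3% rose, 13.1% fell). At 100 or more 2 of 14 members passed, both of them falls, against 13.7% (7.49% rose, 6.21% fell). The share of members past the rule was thus close to or below that of all genes of like level. Of the 20, 8 had under 1 FPKM in 1 library and were measured through the other, where they were high (3 rose and 5 fell).

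**Figure D1:**
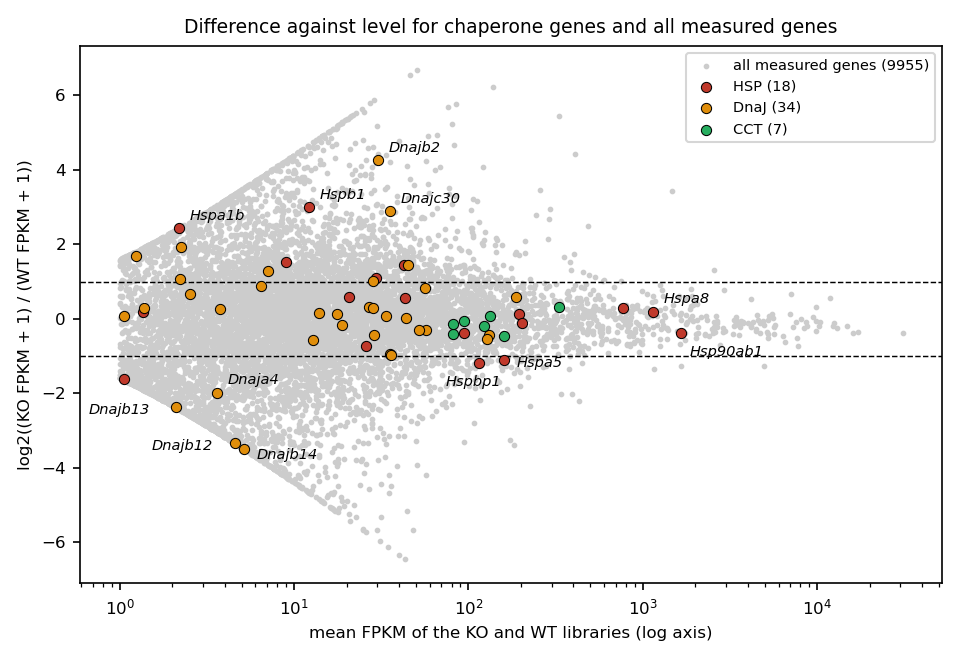
Log2((KO FPKM + 1) / (WT FPKM + 1)) on the vertical axis against the mean FPKM of the 2 libraries on a log axis, for all 9955 measured genes (grey) and the measured HSP (18), DnaJ (34) and CCT (7) genes (coloured); dashed lines mark the size rule of 1. The coloured points narrow toward 0 at high level as the grey cloud does, with Dnajb2 highest and Dnajb14 lowest among the members.

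As a whole the 77 genes made up 0.674% of summed FPKM in the KO library and 0.659% in the WT library. The cytosolic HSP90 gene Hsp90ab1, the constitutive HSP70 gene Hspa8 and Hspe1, the lid of the mitochondrial chaperonin, held 53.5% of the members' FPKM in the KO library and 54.2% in the WT library. The summed output of the group therefore differed little, while single members differed far more.

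The HSP70 and HSP110 genes had 9 of 13 measured, and 3 rose, 1 fell and 5 were short of the rule, with a median log2 ratio of 0.55. The 4 past it were 44.4% of those measured, near the 44.9% of all measured genes. Hspa8, the housekeeping HSP70 of the cytosol, had 1224 FPKM in the KO and 1070 FPKM in the WT library (log2 ratio 0.19). It was the highest gene of the family in both, at rank 138 of all genes in the KO and rank 149 in the WT library. Hspa5 (chr2:34772090-34776529), which encodes BiP, the HSP70 of the ER, had 101 FPKM in the KO and 220 FPKM in the WT library. With 3749 and 17681 reads it fell by 1.11 on the log2 scale, 2.21-fold lower (interval 2.13 to 2.29). Of the 9 measured genes of the family it was the only one that fell. The mitochondrial HSP70 gene Hspa9 had 52.0 FPKM in the KO and 35.1 FPKM in the WT library (0.55), short of the rule.

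Hspa1b (chr17:34956429-34959238), the stress-inducible HSP70 gene, had 4.398 FPKM on 127 reads in the KO library and was listed at 0 in the WT library. It rose, with a log2 ratio of 2.43. Taking the listed 0 as a count, with a floor of 3 reads per library, it was 90.3-fold higher, a value from that floor and not an interval. The lower Clopper-Pearson limit, which also carries the counting error of the KO library, was 72.4-fold. Its copy Hspa1a had 1 read in the KO library and 0 in the WT library. Of the 50-base stretches of the Hspa1b transcript 62.3% also occur in Hspa1a, so how the authors' counting divided their reads is uncertain. In the KO library its level was far below the 1224 FPKM of the constitutive Hspa8.

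Hspa4l (chr3:40744500-40796103), an HSP110-type nucleotide exchange factor, had 13.9 FPKM in the KO and 4.17 FPKM in the WT library and rose 3.38-fold (interval 3.04 to 3.76). Its relative Hspa4 had 25.2 FPKM in the KO and 16.4 FPKM in the WT library (0.59), and Hsph1, the third of this type, had 19.0 FPKM in the KO and 32.4 FPKM in the WT library (-0.74). The exchange factors thus did not share a direction. Hspa14 (chr2:3488854-3512814), the ribosome-associated HSP70, rose at 40.6 FPKM in the KO and 18.6 FPKM in the WT library, 2.06-fold (interval 1.89 to 2.26). Its log2 ratio of 1.09 became 0.96 after rescaling to the upper quartile and 0.95 with a pseudocount of 5, both short of the rule. Dnajc2, its J-domain partner at the ribosome, had 51.1 FPKM in the KO and 63.7 FPKM in the WT library (-0.31). Hspa13, an HSP70 of the microsome, had 1.51 FPKM in the KO and 1.22 FPKM in the WT library (0.18).

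The 3 HSP90 genes were all short of the rule, with a median log2 ratio of -0.12. Hsp90ab1, the constitutive cytosolic form, had 1436 FPKM in the KO and 1870 FPKM in the WT library (-0.38), and Hsp90aa1, the inducible cytosolic form, had 204 FPKM in the KO and 185 FPKM in the WT library (0.14). Hsp90b1, the ER form GRP94, had 194 FPKM in the KO and 211 FPKM in the WT library (-0.12). The order Hsp90ab1 far above the other members of the family was the same in both libraries. Of the mitochondrial chaperonin, the ring gene Hspd1 had 82.1 FPKM in the KO and 107 FPKM in the WT library (-0.37). The lid gene Hspe1 had 840 FPKM in the KO and 692 FPKM in the WT library (0.28). These genes share the promoter site printed above and lay on opposite sides of 0, both short of the rule.

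**Figure D2:**
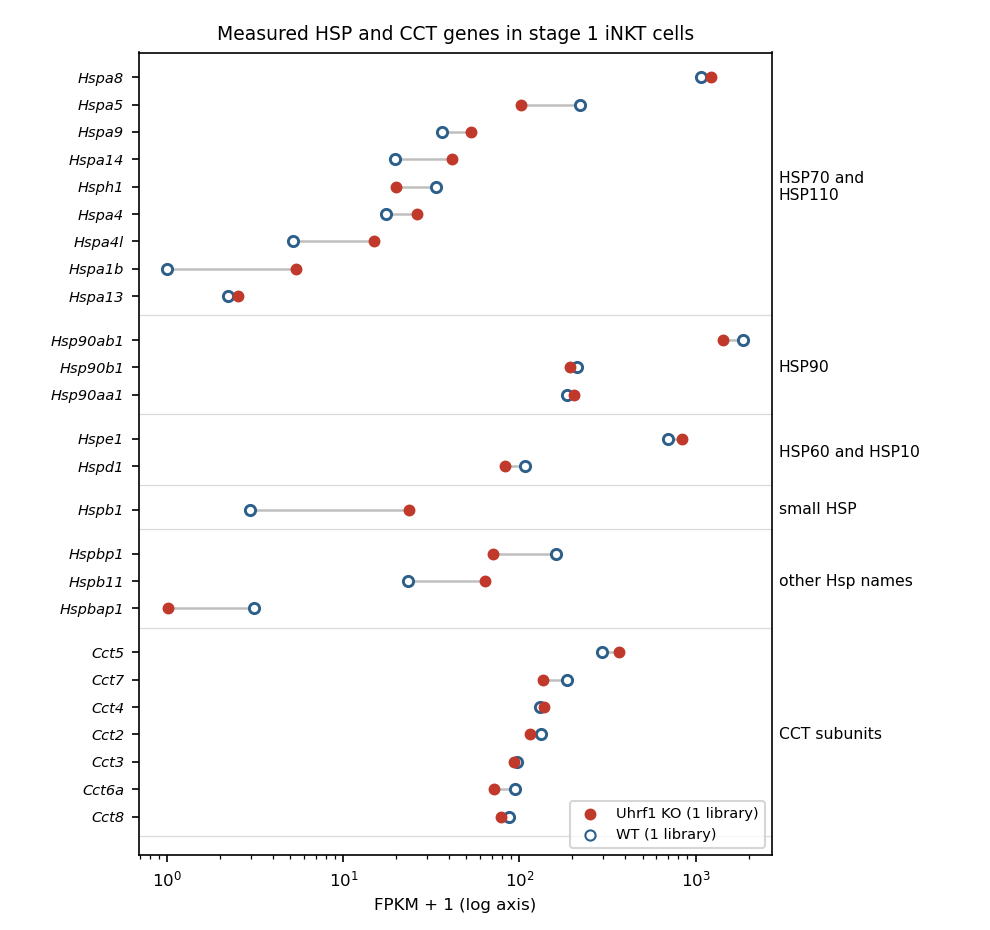
FPKM + 1 on a log axis of the measured HSP and CCT genes, by family, with the KO library as filled red points and the WT library as open blue points joined by a line; each point is 1 library. Most pairs lie close together, and the wide gaps are those of Hspb1, Hspa1b, Hspbap1, Hspa4l and Hspb11.

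Of the small HSP genes, whose proteins hold unfolded clients without ATP, 1 of 6 was measured. Hspb1 (chr5:135887919-135889563) rose at 22.4 FPKM in the KO and 1.93 FPKM in the WT library (100 and 20 reads), 10.7-fold (interval 6.55 to 18.2). Hspb8, which works with the cochaperone Bag3, had 0.926 FPKM on 19 reads in the KO library and was listed at 0 in the WT library, and Hspb6 was listed at 0 in the KO library and had 0.395 FPKM on 12 reads in the WT library. Both were below the measured level. Hspb2, Hspb7 and Hspb9 were at 0 reads in both libraries.

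Other genes carry an Hsp name without being chaperones of these families, and 3 of these 4 were measured. Hspbp1 (chr7:4660515-4685188), a nucleotide exchange factor that opens HSP70, fell at 69.6 FPKM in the KO and 161 FPKM in the WT library, 2.51-fold lower (interval 2.32 to 2.73). Hspbap1, named as an HSPB1-associated protein, fell at 0.0117 FPKM on 1 read in the KO and 2.12 FPKM on 371 reads in the WT library, a ratio of 174 (interval 31.0 to 6887). Hspb11, better known as the intraflagellar transport protein IFT25, rose at 62.7 FPKM in the KO and 22.3 FPKM in the WT library, 2.80-fold (interval 2.42 to 3.25). Hspg2, which encodes the matrix proteoglycan perlecan, was not measured, at 0.172 FPKM in the KO and 0.554 FPKM in the WT library.

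The DnaJ genes spanned log2 ratios of -3.50 to 4.26. Of 41, 34 were measured, with 8 that rose, 4 that fell and 22 short of the rule (35.3% past it, against 44.9% of all measured genes), and a median log2 ratio of 0.15. After rescaling to the upper quartile the split was 6 rises and 6 falls. It was 5 and 1 for genes averaging 5 FPKM or more, and 7 and 1 for genes with over 10 reads in both libraries. The read filter leaves out genes listed at 0 in a library, Dnajb12, Dnajb13 and Dnajb14 among them. Over all genes passing each filter the median log2 ratio was 0.07 and 0.06, against -0.0048 in the main setting. Of all genes at 5 to 25 FPKM 24.1% rose and 23.2% fell, and at 25 to 100 FPKM 19.3% rose and 13.1% fell. At 100 FPKM or more 7.49% rose and 6.21% fell. Shares of all genes under the read filter are not given, so these splits are not read as particular to the DnaJ genes. The classes are set by which parts of the bacterial DnaJ protein a member keeps besides the J domain. Class A keeps all of them, class B a glycine- and phenylalanine-rich stretch, and class C the J domain alone.

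All 4 class A genes were measured. Dnaja1, a main partner of cytosolic HSP70, had 72.6 FPKM in the KO and 40.3 FPKM in the WT library (0.83), and Dnaja2, another, had 34.7 FPKM in the KO and 32.6 FPKM in the WT library (0.09). Dnaja3, the mitochondrial form, rose at 10.5 FPKM in the KO and 3.73 FPKM in the WT library, 2.78-fold (interval 2.36 to 3.29). Dnaja4 (chr9:54698848-54716317), a further cytosolic form, fell at 0.872 FPKM in the KO and 6.396 FPKM in the WT library (39 and 607 reads), 7.30-fold lower (interval 5.27 to 10.4). The class thus held 1 rise and 1 fall, and its most abundant genes were short of the rule.

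In class B 10 of 12 were measured, and 3 rose and 3 fell (60% past the rule), with a median log2 ratio of -0.21. Over all measured genes 44.9% were past it, and 61.1% at a mean FPKM of 1 to 5. Dnajb1, the heat-inducible HSP40, was almost level at 44.0 FPKM in the KO and 43.2 FPKM in the WT library (0.03). Dnajb2 (chr1:75236395-75245692), a ubiquitin-binding J protein best known from neurons, had 58.8 FPKM on 1052 reads in the KO and 2.13 FPKM on 84 reads in the WT library. Its log2 ratio of 4.26 was the highest among the measured members, and its fold was 26.7 (interval 21.4 to 33.8). Dnajb9, an ER J protein called ERdj4 that is a target of the unfolded protein response, rose at 4.14 FPKM in the KO and 0.351 FPKM in the WT library, 12.9-fold (interval 8.92 to 19.1). Dnajb4 rose at 3.34 FPKM in the KO and 1.07 FPKM in the WT library, 3.33-fold (interval 2.64 to 4.21), and was short of the rule after rescaling to the upper quartile (0.97).

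All 3 class B genes that fell were listed at 0 reads in the KO library. Dnajb12 (chr10:59879583-59899296) and Dnajb14 (chr3:137867675-137916563) encode the J proteins anchored in the ER membrane with the J domain toward the cytosol, where they act in ER-associated degradation. Dnajb14 had 10.3 FPKM on 555 reads and Dnajb12 had 9.19 FPKM on 332 reads in the WT library. Scaled to the KO library's depth, those WT reads come to 260 for Dnajb14 and 156 for Dnajb12. Taking each listed 0 as a count, with the floor of 3 reads, Dnajb14 was 86.7-fold lower and Dnajb12 51.9-fold lower. The Clopper-Pearson limits, which also carry the counting error of the WT library, were 70.3-fold for Dnajb14 and 42.0-fold for Dnajb12. Dnajb13, known from sperm flagella and cilia, was at 0 in the KO and at 4.21 FPKM on 118 reads in the WT library. Against the same floor it was 18.4-fold lower, with a Clopper-Pearson limit of 14.8-fold. Dnajb6, which keeps polyglutamine proteins soluble, had 24.3 FPKM in the KO and 33.4 FPKM in the WT library (-0.45). Dnajb11, called ERdj3 and a partner of BiP, had 23.9 FPKM in the KO and 46.7 FPKM in the WT library (-0.93), just short of the rule. Dnajb5 had 1.11 FPKM in the KO and 1.00 FPKM in the WT library (0.08).

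**Figure D3:**
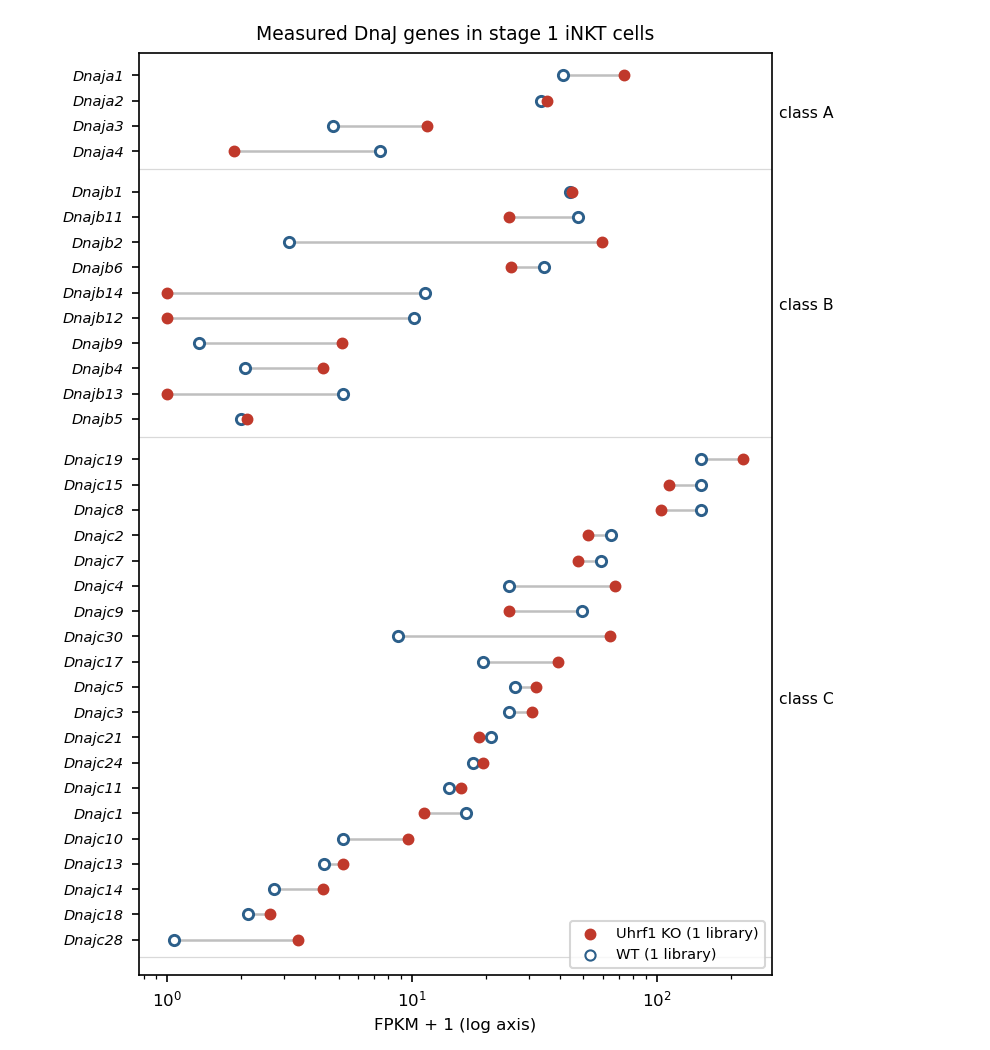
FPKM + 1 on a log axis of the measured DnaJ genes by class, with the KO library as filled red points and the WT library as open blue points joined by a line; each point is 1 library and an FPKM of 0 stands at 1. Dnajb2, Dnajb9, Dnajc28 and Dnajc30 have KO points far to the right of their WT points, and Dnajb12, Dnajb13 and Dnajb14 have KO points at an FPKM of 0.

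Class C, the most varied in role, had 20 of 25 measured, of which 4 rose, none fell and 16 were short of the rule, with a median log2 ratio of 0.27. That is 20% past the rule, against 44.9% of all measured genes, of which 23.6% fell. After rescaling to the upper quartile Dnajc9 passed the rule as a fall. Dnajc30 (chr5:135064206-135065365), a protein of the inner mitochondrial membrane, rose at 63.6 FPKM in the KO and 7.74 FPKM in the WT library (539 and 146 reads), 7.88-fold (interval 6.55 to 9.52). Dnajc28 rose at 2.43 FPKM on 136 reads in the KO and 0.0670 FPKM on 8 reads in the WT library, 36.3-fold (interval 17.9 to 85.7). Dnajc4 rose at 66.2 FPKM in the KO and 23.8 FPKM in the WT library, 2.62-fold (interval 2.26 to 3.04). Dnajc17, a spliceosome-associated J protein, had 38.4 FPKM in the KO and 18.4 FPKM in the WT library, on the edge of the rule at a log2 ratio of 1.02, and its count fold was 1.92 (interval 1.66 to 2.22).

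The most abundant class C genes were short of the rule. Dnajc19, which drives the mitochondrial import motor, had 224 FPKM in the KO and 150 FPKM in the WT library (0.58). Dnajc15, its relative in the inner membrane and known to restrain the respiratory chain in T cells, had 111 FPKM in the KO and 150 FPKM in the WT library (-0.43). Dnajc8, associated with splicing, had 103 FPKM in the KO and 151 FPKM in the WT library (-0.54). Closest to the rule without passing it in the main setting were Dnajc9 and Dnajc10, named after their values were seen. Dnajc9, a cofactor for histone supply, had 23.9 FPKM in the KO and 48.4 FPKM in the WT library (-0.98), and Dnajc10, the ER reductase ERdj5, had 8.65 FPKM in the KO and 4.24 FPKM in the WT library (0.88). The other 9 measured class C genes (Dnajc1, Dnajc5, Dnajc7, Dnajc11, Dnajc13, Dnajc14, Dnajc18, Dnajc21 and Dnajc24) had log2 ratios of -0.57 to 0.67. Dnajc3 is given with its promoter below.

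No CCT gene passed the rule. The 7 measured subunits, of 8 Cct genes, lay close to 0, with log2 ratios of -0.47 to 0.32 and a median of -0.14; at a mean FPKM of 25 to 100 and of 100 or more, 32.3% and 13.7% of all genes passed it. Cct5 was highest in both libraries, at 368 FPKM in the KO and 295 FPKM in the WT library (0.32). Cct7 was furthest below 0, at 134 FPKM in the KO and 186 FPKM in the WT library (-0.47), and Cct6a followed at 70.3 FPKM in the KO and 93.4 FPKM in the WT library (-0.41). Cct2 had 114 FPKM in the KO and 132 FPKM in the WT library, and Cct3 had 92.5 FPKM in the KO and 96.4 FPKM in the WT library. Subunits of the ring bind different faces of actin and tubulin. Cct4 had 137 FPKM in the KO and 130 FPKM in the WT library, and Cct8 had 77.7 FPKM in the KO and 85.8 FPKM in the WT library. Tcp1, subunit 1 of the same ring and outside the name rule, had 60.7 FPKM in the KO and 59.5 FPKM in the WT library (0.03). The ring holds its subunits in equal number, while their transcripts spanned 6.07-fold in the KO and 4.95-fold in the WT library. Cct6b, known as a testis form, was at 0 reads in both.

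**Figure D4:**
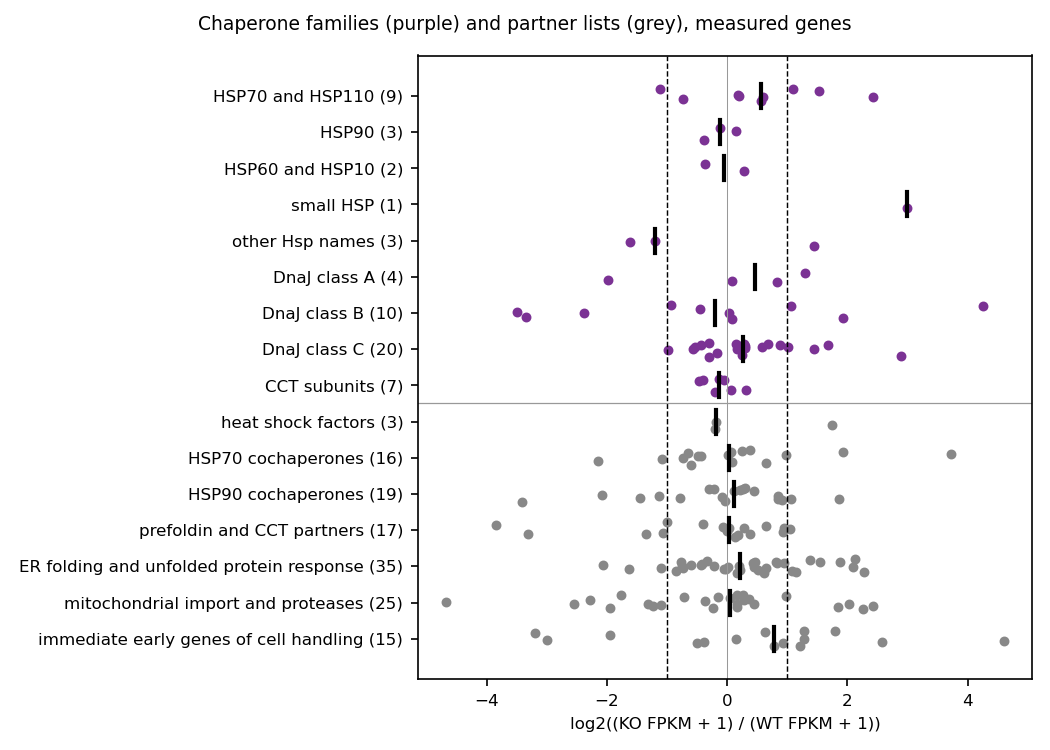
Log2((KO FPKM + 1) / (WT FPKM + 1)) of each measured gene (points) by chaperone family (purple) and partner list (grey), with the number measured in brackets; black bars are medians and dashed lines the size rule of 1. The CCT, HSP90 and HSP60 and HSP10 points lie within the rule, and DnaJ class B spreads from -3.50 to 4.26.

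Not measured were 18 of the 77 genes. Of these, 8 were at 0 reads in both libraries. Besides Hspb6, Hspb8 and Hspg2, given above, those with 10 or more reads in a library were as follows. Dnajc16 was at 0 in the KO and had 1.76 FPKM on 159 reads in the WT library, which scales to 74.5 reads at the KO depth. Dnajc25 was at 0 in the KO and had 0.932 FPKM on 63 reads in the WT library, and Dnajb3 was at 0 in the KO and had 0.867 FPKM on 17 reads in the WT library. Dnajc6, the auxilin that uncoats clathrin vesicles, had 0.865 FPKM on 83 reads in the KO and 0.158 FPKM on 31 reads in the WT library. The last 3 were near 0 in both libraries: Hspa12a had 5 reads in the KO and 10 in the WT library, Dnajc27 had 0 in the KO and 1 in the WT library, and Hspa1a is given above. Across all 77 genes, 8 were at 0 in the KO library only and 3 in the WT library only. Over all 16386 genes it was 1823 in the KO library only and 897 in the WT library only, an imbalance in the same direction.

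Partner genes were taken from lists of the same pathways and of immediate early genes. Of 142 genes found, 130 were measured, and 24 rose and 24 fell (36.9% past the rule, against 44.9% of all measured genes), with a median log2 ratio of 0.14. The medians given below for the HSP70 cochaperones, HSP90 cochaperones, prefoldin partners and mitochondrial genes are slightly above 0 and turned negative after rescaling to the upper quartile. Of the heat shock factors and their binding protein 3 were measured and 1 rose. Hsf1, the main stress factor, had 36.3 FPKM in the KO and 41.6 FPKM in the WT library (-0.19). Hsf2, its relative of development, rose at 6.16 FPKM in the KO and 1.15 FPKM in the WT library, 5.78-fold (interval 4.75 to 7.06).

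Among 16 measured HSP70 cochaperones 2 rose and 2 fell, with a median of 0.03. Bag2, which inhibits the ubiquitin ligase of the HSP70 machine, rose at 19.2 FPKM in the KO and 0.534 FPKM in the WT library. Bag3, an inducible cochaperone of selective autophagy, rose at 2.87 FPKM on 73 reads in the KO and 0.0175 FPKM on 1 read in the WT library. Bag4 fell at 0.0918 FPKM in the KO and 3.82 FPKM in the WT library, and l7Rn6, which encodes Hikeshi, the nuclear importer of HSP70, fell at 34.8 FPKM in the KO and 74.8 FPKM in the WT library. The BAG-domain exchange factors thus included both directions, and Bag1 stood at 95.8 FPKM in the KO and 95.4 FPKM in the WT library. The adaptors Stip1 (120 FPKM in the KO, 92.3 in the WT library) and St13 (115 FPKM in the KO, 182 in the WT library) and the ligase gene Stub1 (195 FPKM in the KO, 125 in the WT library) were short of the rule.

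Of 19 measured HSP90 cochaperones 2 rose and 4 fell, with a median of 0.12. Chordc1 rose at 45.5 FPKM in the KO and 11.9 FPKM in the WT library, and Fkbp4, the immunophilin FKBP52, rose at 146 FPKM in the KO and 69.7 FPKM in the WT library. Nudcd2 fell at 2.37 FPKM in the KO and 34.9 FPKM in the WT library. Pih1d1, part of the complex that assembles large protein machines with HSP90, fell at 29.0 FPKM in the KO and 127 FPKM in the WT library, and Nudcd3 fell at 6.99 FPKM in the KO and 20.8 FPKM in the WT library. The kinase-loading Cdc37 (91.0 FPKM in the KO, 113 in the WT library), p23, encoded by Ptges3 (75.4 FPKM in the KO, 69.4 in the WT library), and the ATPase activator Ahsa1 (94.5 FPKM in the KO, 163 in the WT library) were short of the rule.

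Prefoldin and CCT partners, which deliver actin and tubulin or take them from the ring, had 17 measured, of which 1 rose and 4 fell (median 0.03). Uri1, a prefoldin-like scaffold, fell at 0.0280 FPKM on 2 reads in the KO and 13.7 FPKM on 1974 reads in the WT library. The tubulin cofactor Tbcb fell at 16.5 FPKM in the KO and 172 FPKM in the WT library, and the cofactor Tbcd fell at 4.03 FPKM in the KO and 11.8 FPKM in the WT library. The phosducin-like Pdcl fell at 2.95 FPKM in the KO and 7.33 FPKM in the WT library. Pfdn2 itself had 68.4 FPKM in the KO and 71.7 FPKM in the WT library.

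Beside the fall of Hspa5, the ER folding and unfolded protein response list had 35 measured genes, with 8 that rose, 3 that fell and a median of 0.22. This is 31.4% past the rule, against 44.9% of all measured genes (21.3% rose, 23.6% fell). Sil1, the nucleotide exchange factor of BiP, rose at 26.96 FPKM in the KO and 4.78 FPKM in the WT library, 5.27-fold (interval 4.42 to 6.31). Ddit3, which encodes the stress factor CHOP and shares its locus with another gene, rose at 202 FPKM in the KO and 45.4 FPKM in the WT library. The oxidase gene Ero1lb rose at 3.33 FPKM in the KO and 0.0166 FPKM in the WT library, and Pdia5 was at 0 in the KO and 3.21 FPKM in the WT library. Canx, the lectin chaperone calnexin, fell at 31.7 FPKM in the KO and 68.8 FPKM in the WT library. Calr (184 FPKM in the KO, 306 in the WT library), Pdia3 (83.2 FPKM in the KO, 112 in the WT library), Hyou1 (12.7 FPKM in the KO, 6.71 in the WT library) and the factors Xbp1 (51.6 FPKM in the KO, 44.3 in the WT library) and Atf4 (147 FPKM in the KO, 153 in the WT library) were short of the rule. Partners of BiP and other folding genes thus lay on both sides of 0.

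Mitochondrial import and protease genes had 25 measured, with 4 that rose, 8 that fell and a median of 0.05. The 48% past the rule is near the 44.9% of all measured genes. Clpx, the unfoldase of the matrix protease, rose at 16.6 FPKM in the KO and 2.30 FPKM in the WT library, while Clpp, its protease chamber, fell at 1.71 FPKM in the KO and 68.6 FPKM in the WT library (18 and 1613 reads). Transcripts of the subunits of this protease thus lay on opposite sides. The quality control protease Htra2 fell at 1.87 FPKM in the KO and 13.03 FPKM in the WT library, and Trap1, the mitochondrial HSP90, fell at 10.7 FPKM in the KO and 44.2 FPKM in the WT library. Bcs1l was at 0 in the KO and 4.85 FPKM in the WT library. Grpel1, the exchange factor of Hspa9, had 44.3 FPKM in the KO and 36.8 FPKM in the WT library, and Lonp1 had 24.1 FPKM in the KO and 19.8 FPKM in the WT library, both short of the rule.

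Immediate early genes answer signals and handling quickly. Among 15 measured there were 6 rises and 3 falls (60% past the rule, against 44.9% of all measured genes), and the median was 0.77. Fos rose at 25.6 FPKM in the KO and 0.0918 FPKM in the WT library, and Socs3 rose at 41.0 FPKM in the KO and 6.04 FPKM in the WT library. Rhob fell at 0.0425 FPKM in the KO and 8.55 FPKM in the WT library, and Dusp1 fell at 0.304 FPKM in the KO and 9.47 FPKM in the WT library. The part of cell handling in the values of Hspa1b, Hspb1 and Bag3 was not tested.

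Markers of other cells differed between the KO and WT libraries as well. Of 10 myeloid markers 6 were measured and all 6 rose, with a summed FPKM of 3092 in the KO and 326 in the WT library, and with the defining markers Cd14 and Adgre1 at 0 in both. Of the stromal and epithelial markers 5 of 10 found were measured and all 5 rose (summed FPKM 136 in the KO and 22.03 in the WT library), with Krt8 and Pdgfra at 0 in both. Among those not measured, the epithelial genes Epcam (0 reads in the KO and 60 in the WT library) and Krt5 (0 reads in the KO and 9 in the WT library) were lower in the KO. Of 7 erythroid markers found 4 were measured and 3 rose (628 in the KO and 69.0 in the WT library), with Klf1 and Slc4a1 at 0 in both. Of 9 naive T cell markers 7 rose and 1 fell (1642 in the KO and 499 in the WT library), and the 4 gamma-delta T cell markers found all fell (1.72 in the KO and 165 in the WT library). Of 5 B cell markers 1 was measured and it was short of the rule (15.6 in the KO and 17.4 in the WT library), and no germline marker was measured. The part of such cells in the chaperone values was not tested.

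Across the promoters, 64 of the 77 genes had an entry in the RefSeq table of GRCm38.p6, with 83 windows in all. Each window held 300 bases, from 250 before to 50 after a start. A gene was counted for a motif when any of its windows held it. The head-to-head heat shock element pair was in 13 of 64 members (20.3%) and in 9.04% of all 27025 genes of the table. The tail-to-tail pair, which can overlap it, was in 8 of 64 members (12.5%) and in 9.60% of all genes, and either pair in 17 of 64 (26.6%) and 17.0%. The triplet GAA, TTC and GAA, each 2 bases apart, on either strand and made of both pairs, was in 4 members (Hspd1, Hspe1, Dnajb6 and Hsph1) and in 0.662% of all genes. The ER stress element was in 3 members and in 0.137% of all genes. The CCAAT box, which the ER stress element contains, was in 27 of 64 members (42.2%) and in 41.1% of all genes. A match describes letters and not a bound site.

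Members with and without these letters moved both ways. Of 13 measured members with either heat shock element pair, 3 rose, 1 fell and 9 were short of the rule, with log2 ratios of -1.98 to 2.997 and a median of 0.28. Over all measured genes 21.3% rose and 23.6% fell. Those that rose were Hspb1, Hspa1b and Dnajb4, and the one that fell was Dnaja4. All 4 with the triplet were short of the rule. Of 35 measured members with a promoter entry and no pair, 9 rose, 6 fell and 20 were short of the rule, with a median of 0.03. The 3 members with an ER stress element were Hspa5, which fell, Hsp90b1 (-0.12) and Dnajc3, the ER J protein p58IPK, at 29.7 FPKM in the KO and 23.9 FPKM in the WT library (0.30). Uhrf1 is known to bind hemimethylated CpG sites, and CpG counts are given for the first listed window of each gene. Where a gene has several windows, this can be another window than the one with a motif. The median was 24 CpG for the 12 members that rose, 26 for the 7 that fell and 27 for the 29 short of the rule. Over 7980 measured genes it was 21, with 19 for rises, 20 for falls and 22 for genes short of the rule. The order was thus the same in the members and in all measured genes.

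Some single values are uncertain because of shared sequence. In 76 members with a transcript in the annotation, 8 shared over 20% of their 50-base stretches with other genes, mostly pseudogenes. They were Hspa8 (73.2%), Hspa1b (62.3%), Hspa1a (60.3%), Hsp90aa1 (58.5%), Hspb1 (51.6%), Hspd1 (44.8%), Hspe1 (36.1%) and Dnajb6 (35.8%). Of the measured members 9 also lay at a locus that the files give to more than 1 gene, Dnajc30, Dnajc17, Dnaja1, Dnajc19, Cct7 and Cct8 among them. Reads from exons that overlap at such a locus cannot be told apart where strand was not used. Whether exons of these genes overlap was not checked.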

How the data were processed

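RNA-seq of sorted stage 1 iNKT cells gave 1 Uhrf1 KO and 1 WT library, grouped by the genotype label. Libraries were made with a TruSeq RNA kit, per the labels' protocols. The submitters' processing notes name mm10 as the build, with Cufflinks 2.1.1 and TopHat2 2.0.9; their roles, the annotation and any use of strand were not given in the sources used here. The authors deposited an FPKM value per gene and a column of counts, per the file headers. These deposited counts behave as a scaled signal: most are whole multiples of 1.70 in the KO and 0.799 in the WT library, and the columns of both libraries have almost equal sums. Dividing by these steps gave whole reads within 0.01 for 98.7% of nonzero KO genes, 98.1% of nonzero WT genes and all 77 members. Since fractions remained, no count model was fitted.

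The chaperone members, families, partner lists and marker lists were chosen with earlier results of these data known. Named were Uhrf1, the measured Hsp, Cct and DnaJ class A genes, and the DnaJ class B and C genes past the size rule. The 4 most abundant genes of classes B and C were named too. So were unmeasured members with at least 10 reads in 1 library, and up to 4 genes of each partner list with a fixed set of well known ones. Also named were Dnajb5, the remaining measured class C genes and some unmeasured members at 0 or few reads. Any other member is said to be chosen after its value was seen, or is given for its promoter or locus. Gene coordinates (1-based) and promoters were from RefSeq on GRCm38.p6, the assembly also called mm10, and shared sequence was counted on GENCODE transcripts. Depth was 12189849 reads in the KO and 26005822 in the WT library. One marker gene is not reported here by name. Steps were tested on simulated data. Alternatives were other pseudocounts, filters, rescalings and size rules, the count column, and members without a shared locus, and 1 more, over 10 reads in each library, was added after seeing the data. Tools were pandas 2.3.3, numpy 2.4.6, scipy 1.17.1, Biopython 1.88 and matplotlib 3.10.9 under Python 3.11.15.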

Additional observations from a re-analysis of the deposited data

How the results depend on the processing

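Of 110 list counts and medians recomputed under alternatives, 98 stayed within set limits and 12 moved. The limits were 1.5 times the main count, or an interval of the main median from the spread of the list's own genes. Genes of a list are not replicates, so this interval is loose. For the 7 measured CCT genes it ran from the lowest to the highest log2 ratio (-0.47 to 0.32). Their median could thus hardly leave it, and the 98 do not measure how firm the results are. The 20 members past the size rule became 10 with a pseudocount of 5, 12 at a mean FPKM of at least 5, 31 with a size rule of 0.5 and 7 with a size rule of 2. The 8 HSP genes past it became 5 with a pseudocount of 5 and 2 with a size rule of 2. The 12 DnaJ genes became 5 with a pseudocount of 5, 6 at a mean FPKM of at least 5, 20 with a size rule of 0.5 and 5 with a size rule of 2. At a size rule of 2 the DnaJ split was 2 rises and 3 falls, against 8 and 4 in the main setting. The 48 partner genes became 78 with a size rule of 0.5 and 20 with a size rule of 2. These follow from the construction of the alternatives, which shrink low genes, drop them or move the limit. With a pseudocount of 5, Dnaja3, Dnaja4, Dnajb13, Dnajb4, Dnajb9, Dnajc17, Dnajc28, Hspa14, Hspa1b and Hspbap1 were short of the rule. Rescaling to the upper quartile moved the median of all measured genes to -0.12. The members' median was then 0.011, no member family changed sign, and the medians of the HSP70 cochaperones (-0.10), HSP90 cochaperones (-0.01), prefoldin and CCT partners (-0.10) and mitochondrial genes (-0.08) turned negative. Under it Dnajb4, Dnajc17 and Hspa14 lost the rule, and Dnajb11 and Dnajc9 passed it. Dnajc17 also lost it on the count column, where Dnajc10 passed it as a rise. With a pseudocount of 0.1 Dnajc10 passed as a rise and Dnajc9 as a fall, for 22 members past the rule (14 rises and 8 falls). No CCT subunit passed the rule of 1 in size under any alternative at that rule. With 1 library per genotype no replicate could be left out. No paired analysis was possible because each genotype has 1 library. Depth limits the genes at few reads, such as Hspbap1, Hspa1a, Hspb6 and Hspb8.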
